A study of Mus musculus with 6 samples.

Results

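The genes described here are 9 members of the interleukin-1 (IL-1) family in mouse squamous carcinoma cells: the ligands Il1a, Il1b, Il18 and Il33, the antagonist Il1rn, and the receptor genes Il1r1, Il1r2, Il1rap and Il1rl1. They were chosen by name as family ligands, antagonist and receptors, and make up 9 of the 55385 mouse genes in the count table. All 9 passed the filter on low counts that left 18504 genes for testing. The libraries came from PDVC57, a mouse keratinocyte line that forms squamous carcinomas. Of the 6 libraries, 3 are labelled Sox2 KO (Sox2 knockout, below "knockout") and 3 Sox2 overexpression (below "overexpression"). The series' design text describes cells low or high in Sox2, a stem cell transcription factor, that were taken from grafted tumours, and asks which mechanisms Sox2 turns on in tumour stem cells to act on neutrophils. The host strain and age, the number of clones, the sort and whether the overexpressing cells keep their own Sox2 are not given in the sources used here.

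Ligands of the IL-1 family are alarm signals of barrier tissue. IL-1α and IL-1β bind the receptor encoded by Il1r1, which needs the accessory protein encoded by Il1rap to signal through Myd88 and NF-kB. The product of Il1rn occupies the same receptor without signalling, and the product of Il1r2 is a decoy that binds ligand without passing a signal on. IL-33 signals through the product of Il1rl1 (ST2) with the same accessory protein, and IL-18 through a separate receptor pair. Keratinocytes store IL-1α and are a known source of it in skin, and IL-1 is known to raise chemokines that draw neutrophils.

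The library totals ranged from 31247976 to 38543221 counts, and the targeted gene Sox2 was at 25 to 49 counts with knockout and 2566 to 4095 with overexpression. All 10 keratinocyte markers had at least 115 counts in every library. Their summed level was 2135 to 4691 CPM (counts scaled to library size with TMM normalization) with knockout and 7953 to 11819 CPM with overexpression. Fibroblast markers stood apart: the summed level of 10 genes, among them Col1a1 and Pdgfra, was 56344 to 83465 CPM in the knockout libraries and 294 to 495 CPM in the overexpression libraries, 0.519% of the knockout mean. In bulk RNA, fewer cells of a type and less RNA per cell cannot be told apart, so each difference below is a difference between libraries. Nothing in the labels says that replicates came from separate tumours, and p-values measure the spread between these libraries only.

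Il1a and Il1b are neighbours on chromosome 2 and changed in opposite directions, and Il1rl1 had the largest fitted fall of the 9 genes. Their upstream sequences are shown for that reason, each as the 250 bases before a RefSeq transcription start (GRCm38.p6), read 5′ to 3′ on the gene's strand. They are chr2:129309973-129310222 (minus strand) for Il1a, chr2:129371140-129371389 (minus strand) for Il1b and chr1:40439379-40439628 (plus strand) for the second of the starts of Il1rl1. Capitals mark the words found by the search described after the sequences. Il1rl1 has 2 RefSeq starts, and the one printed is the one before which that search found a word.
Il1a: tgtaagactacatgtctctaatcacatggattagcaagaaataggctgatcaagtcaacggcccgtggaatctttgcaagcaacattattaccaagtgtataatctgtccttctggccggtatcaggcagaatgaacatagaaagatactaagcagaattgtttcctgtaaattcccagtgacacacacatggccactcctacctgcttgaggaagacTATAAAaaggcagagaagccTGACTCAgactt
Il1b: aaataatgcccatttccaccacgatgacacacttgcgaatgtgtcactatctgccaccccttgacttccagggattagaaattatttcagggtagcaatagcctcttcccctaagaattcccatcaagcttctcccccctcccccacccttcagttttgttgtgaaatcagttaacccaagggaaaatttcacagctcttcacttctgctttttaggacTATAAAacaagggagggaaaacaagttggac
Il1rl1: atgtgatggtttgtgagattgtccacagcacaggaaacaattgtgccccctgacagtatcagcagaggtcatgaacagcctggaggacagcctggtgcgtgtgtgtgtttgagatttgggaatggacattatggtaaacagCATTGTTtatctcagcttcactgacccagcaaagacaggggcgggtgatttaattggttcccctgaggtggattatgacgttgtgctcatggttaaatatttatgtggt
All 9 genes matched the RefSeq promoter table, with 14 starts between them. The words searched on both strands were CATTGTT and CTTTGTT for SOX factors, TGANTCA for AP-1, TATAAA for the TATA box and a looser and a stricter 10-base word for the NF-kB site, of which the looser takes in every match of the stricter. TATAAA stood 32 bases before the start of Il1a and 31 bases before that of Il1b, and 12.4% of all 32851 starts in the table hold it. TGANTCA began 12 bases before the start of Il1a and was also found 141 bases before the first start of Il1rn, against 6.75% of all starts. CATTGTT was found before 1 of the 14 starts, that of Il1rl1 printed above, 109 bases before it, and 3.29% of all starts hold it. CTTTGTT was found before none of the 14 starts, and 5.03% of all starts hold it. The looser NF-kB word was found before a start of Il1r1 and a start of Il1rn (4.65% of all starts), and the stricter one before the same start of Il1rn (1.41% of all starts). TATAAA was also found before starts of Il33 and Il18. These matches describe letters in a window and say nothing of binding.

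Of the 9 genes, 1 (Il1a) was higher with overexpression and 7 were lower at an adjusted p under 0.05 (edgeR quasi-likelihood test, adjusted over all tested genes). Il1rn was the gene that did not pass. Among all tested genes, 31.6% were called, 13.6% higher and 18.0% lower. The groups did not overlap for the same 8 genes, against 50.9% of all tested genes. The median log2 fold change of the 9 genes was -1.51, and that of all tested genes was -0.02. Scaling the libraries to the keratinocyte markers moved the median of all genes to -1.56, and left 1 of the 9 genes higher and 7 lower with the median of the 9 at -3.02. Under that scaling 241 of all genes were called higher and 14129 lower, where TMM gave 2519 and 3329.

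**Figure D1:**
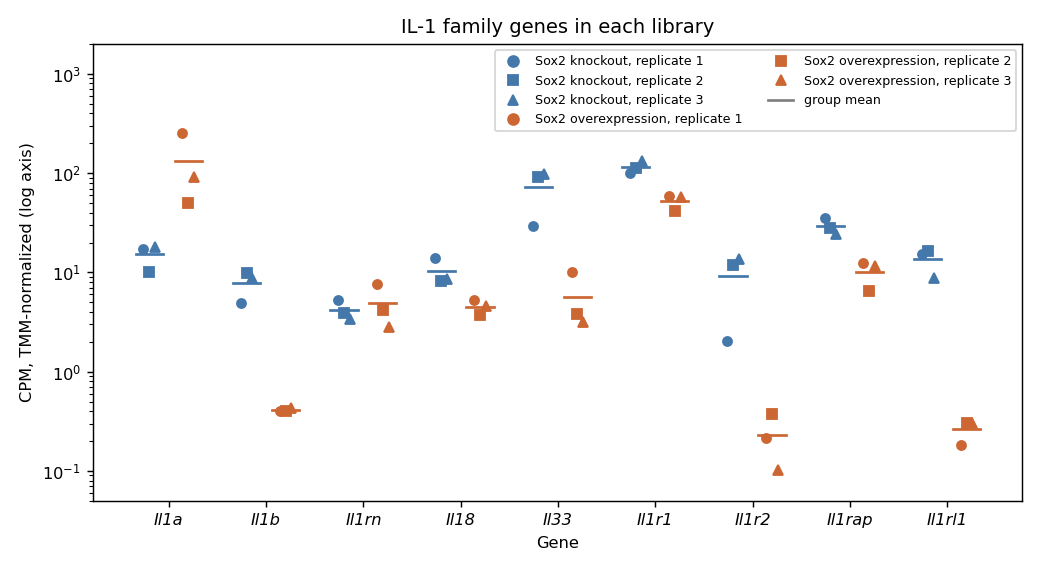
TMM-normalized CPM (log axis) of the 9 IL-1 family genes in each of the 6 libraries, with lines at the group means. Il1a is the gene whose 3 overexpression libraries (50.1 to 253 CPM) all lie above the knockout libraries (10.2 to 18.0 CPM), Il1rn overlaps, and the other 7 genes are lower with overexpression.

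Il1a encodes IL-1α, which is active as a precursor and is released from damaged cells. It was measured at 17.3, 10.2 and 18.0 CPM in knockout replicates 1, 2 and 3, and at 253, 50.1 and 91.0 CPM in overexpression replicates 1, 2 and 3. The groups did not overlap, and overexpression replicate 1 lay far above the other libraries of its group. Mean levels were 15.2 ± 4.34 CPM with knockout and 131 ± 107 CPM with overexpression (SD, n = 3 each). By edgeR the log2 fold change was 3.11 ± 0.56 (SE; adjusted p = 0.00305). Without overexpression replicate 1 the overexpression mean was 70.6 CPM (log2 fold change 2.24, adjusted p = 0.00134). Il1a (ENSMUSG00000027399) lies on the minus strand of chromosome 2, from 129299610 to 129309972 in GENCODE M21 on GRCm38. It shares 222 exon bases with Gm14023 on the other strand, which had 5 to 21 counts with knockout and 23 to 88 with overexpression, where Il1a had 1481 to 8290. The strand setting is not given, so reads in the shared bases could belong to either gene.

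Il1b encodes IL-1β, made mostly by myeloid cells and activated by cleavage. It lies on chromosome 2 at 129364570 to 129371139, within 71.5 kb that also hold Il1a, on the same strand. Its level was 4.92, 9.92 and 8.72 CPM in knockout replicates 1 to 3 and 0.397, 0.406 and 0.43 CPM in overexpression replicates 1 to 3. The overexpression libraries were close together and below each knockout library. Mean levels were 7.85 ± 2.61 CPM with knockout and 0.411 ± 0.0172 CPM with overexpression (SD, n = 3 each), which is 19.1-fold lower. By edgeR the log2 fold change was -4.24 ± 0.37 (SE; adjusted p = 5.23e-05). The overexpression values rest on 12 to 17 counts a library. Il1bos, which shares 25 exon bases with Il1b on the other strand, had 25 to 62 counts with knockout and 14 to 27 with overexpression.

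Markers of the myeloid cells that are known to make IL-1β were few in both groups. The summed level of 10 macrophage markers was 16.4 to 29.2 CPM with knockout and 13.9 to 28.5 CPM with overexpression. Csf1r and Cd68 made up most of that sum in every library, at 182% and 141% of their knockout means with overexpression (adjusted p = 0.103 and 0.356, edgeR). Of the other macrophage markers, several were at a small share with overexpression, such as Adgre1 (4.38% of its knockout mean), Lyz2 (10.9%), Itgam (13.8%) and Mrc1 (15.3%). Of 7 tested macrophage markers, 3 (Lyz2, Itgam and C1qa) were lower and 0 higher past the threshold. The summed level of 10 neutrophil markers was 4.66 to 8.74 CPM with knockout and 2.68 to 10 CPM with overexpression. Of 3 tested neutrophil markers, 1 (Csf3r) was lower and 0 higher. Ly6g had 64, 66 and 87 counts in knockout replicates 1 to 3 and 162, 242 and 43 in overexpression replicates 1 to 3, most of the overexpression sum in replicates 1 and 2. S100a9 had 4, 8 and 14 counts in knockout replicates 1 to 3 and 0 in each overexpression library. In all, 3 of the 10 markers (S100a9, Retnlg and Ngp) were at 0 in every overexpression library. Ngp was also at 0 in every knockout library, and Retnlg had 0, 1 and 0 counts in knockout replicates 1 to 3. The part of these cells in the fall of Il1b was not tested.

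Il1rn, the receptor antagonist gene, was at 5.28, 3.87 and 3.43 CPM in knockout replicates 1 to 3 and at 7.6, 4.16 and 2.81 CPM in overexpression replicates 1 to 3. The groups overlapped, with overexpression replicate 1 highest and overexpression replicate 3 lowest of all 6 libraries. Mean levels were 4.19 ± 0.966 CPM with knockout and 4.86 ± 2.47 CPM with overexpression (SD, n = 3 each). By edgeR the log2 fold change was 0.21 ± 0.39 (SE; adjusted p = 0.709). The sign changed to -0.25 without overexpression replicate 1 and to -1.21 under the keratinocyte scaling. Il1rn has 6 transcripts in GENCODE M21, and counts per gene do not separate its secreted and intracellular forms.

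Il33 encodes IL-33, a nuclear alarm signal held by epithelial, endothelial and stromal cells. It was measured at 29.0, 91.3 and 97.3 CPM in knockout replicates 1 to 3 and at 10.1, 3.82 and 3.19 CPM in overexpression replicates 1 to 3. Knockout replicate 1 was the lowest of its group and overexpression replicate 1 the highest of its group, and the groups did not overlap. Mean levels were 72.5 ± 37.8 CPM with knockout and 5.69 ± 3.8 CPM with overexpression (SD, n = 3 each), 12.7-fold lower. The edgeR log2 fold change was -3.67 ± 0.57 (SE; adjusted p = 0.00147). Without overexpression replicate 1 the overexpression mean was 3.5 CPM (log2 fold change -4.35, adjusted p = 0.000745).

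Levels of stromal markers differed between the groups in the same direction as Il33. All 10 fibroblast markers fell, with log2 fold changes from -9.98 (Dpt) to -2.11 (Fbln1) and a median of -7.65. Of 9 tested endothelial markers 8 fell, with a summed level of 40.1 to 135 CPM with knockout and 14 to 20.8 CPM with overexpression. Of 9 tested mural cell markers 7 fell and 1 rose, with a summed level of 318 to 447 CPM with knockout and 111 to 177 CPM with overexpression. The marker that rose, Notch3 (174% of its knockout mean, adjusted p = 0.0358, edgeR), was the largest part of the sum in each overexpression library. The 7 that fell were at 0.211% (Rgs5) to 20.3% (Acta2) of their knockout means. The overexpression mean was 7.85% of the knockout mean for Il33, 0.519% for the summed fibroblast markers and 23.5% for the summed endothelial markers. Tek, the tested endothelial marker that was not called (60% of its knockout mean, adjusted p = 0.216, edgeR), made up most of the endothelial overexpression sum. The other tested endothelial markers were at 0.431% (Cdh5) to 18.7% (Pecam1) of their knockout means. The part of these cells in the fall of Il33 was not tested.

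Il18 encodes IL-18, a ligand that keratinocytes make and that needs cleavage. It was at 14, 8.13 and 8.66 CPM in knockout replicates 1 to 3 and at 5.28, 3.72 and 4.58 CPM in overexpression replicates 1 to 3. The highest value, in knockout replicate 1, stood apart from the other knockout libraries, and the groups did not overlap. Mean levels were 10.3 ± 3.25 CPM with knockout and 4.53 ± 0.781 CPM with overexpression (SD, n = 3 each). By edgeR the log2 fold change was -1.18 ± 0.28 (SE; adjusted p = 0.0132). Among the 8 genes that passed the threshold, this adjusted p was the highest.

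The receptor subunits that carry the IL-1 signal were 2.2-fold (Il1r1) and 2.85-fold (Il1rap) lower with overexpression, the decoy receptor gene 40.3-fold and the ST2 gene 51.3-fold. Il1r1, the signalling receptor gene, was at 101, 112 and 134 CPM in knockout replicates 1 to 3 and at 59.1, 41.7 and 56.9 CPM in overexpression replicates 1 to 3. The groups were apart and the spread within each was small beside the gap. Mean levels were 116 ± 17 CPM with knockout and 52.6 ± 9.48 CPM with overexpression (SD, n = 3 each). The edgeR log2 fold change was -1.14 ± 0.19 (SE; adjusted p = 0.00185). Il1rap, the shared accessory protein gene, was at 35.5, 27.9 and 24.1 CPM in knockout replicates 1 to 3 and at 12.5, 6.56 and 11.7 CPM in overexpression replicates 1 to 3. Its groups were also apart, with an edgeR log2 fold change of -1.51 ± 0.27 (SE; adjusted p = 0.00303). Il1rap has 7 transcripts in GENCODE M21, some of which encode soluble forms, and shares 552 exon bases with Gm20319 on the other strand, which had at most 24 counts in a library.

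Il1r2, the decoy receptor gene, was at 2.05, 11.9 and 13.8 CPM in knockout replicates 1 to 3 and at 0.214, 0.372 and 0.101 CPM in overexpression replicates 1 to 3. Knockout replicate 1 was far below the other knockout libraries and still above each overexpression library. Mean levels were 9.24 ± 6.29 CPM with knockout and 0.229 ± 0.136 CPM with overexpression (SD, n = 3 each). The edgeR log2 fold change was -5.35 ± 0.80 (SE; adjusted p = 0.00114). The overexpression libraries held 4 to 11 counts of Il1r2, so the size of the fall is imprecise.

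Il1rl1, the gene of the IL-33 receptor ST2, was at 15.3, 16.5 and 8.83 CPM in knockout replicates 1 to 3 and at 0.183, 0.304 and 0.304 CPM in overexpression replicates 1 to 3. The groups were far apart, with knockout replicate 3 the lowest knockout library. Mean levels were 13.5 ± 4.12 CPM with knockout and 0.264 ± 0.0698 CPM with overexpression (SD, n = 3 each). The edgeR log2 fold change was -5.66 ± 0.38 (SE; adjusted p = 1.12e-05). The overexpression libraries held 6 to 12 counts. Il1rl1 has a short soluble and a long membrane form from separate starts, which counts per gene do not separate.

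Mast cells and several lymphocytes are known for high ST2, and most of their tested markers fell, as Il1rl1 did. The summed level of 10 mast cell markers was 22.1 to 27.8 CPM with knockout and 0.607 to 0.793 CPM with overexpression. Kit and Hdc made up most of that sum in knockout replicates 2 and 3 and in each overexpression library. Of the 10 markers 4 were tested and all 4 fell, and 5, among them Cpa3 and Mcpt4, were at 0 in every overexpression library. Of those at 0, Mrgprb2 was also at 0 in every knockout library, and Fcer1a had 2, 6 and 4 counts in knockout replicates 1 to 3. Within the knockout group the markers did not share an order. Mcpt4 (162, 62 and 3 counts in replicates 1, 2 and 3), Cpa3 (64, 26 and 6), Cma1 (81, 42 and 0) and Tpsb2 (116, 52 and 35) were lowest in replicate 3. So was Il1rl1, with 521, 499 and 322 counts. Tpsab1 (60, 16 and 22) was highest in replicate 1. Kit (69, 216 and 361) and Hdc (197, 416 and 369) were lowest in replicate 1, as were the few counts of Ms4a2 (2, 6 and 7) and Fcer1a. Of 8 tested markers of T and innate lymphocytes 6 fell. Their summed level was 23.7 to 153 CPM with knockout, highest in replicate 3, and 9.7 to 11 CPM with overexpression. Gata3 (log2 fold change -0.10, adjusted p = 0.784, edgeR) and Cd4 (-1.93, adjusted p = 0.173) were not called. Gata3 had 247, 353 and 319 counts in knockout replicates 1 to 3 and 251, 270 and 359 in overexpression replicates 1 to 3. It made up most of the overexpression sum in each library. The part of these cells in the fall of Il1rl1 was not tested.

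Scaled to exon length, the order of the genes differed between the groups. In CPM per kb of merged exons, the knockout libraries were led by Il33 (25.1 ± 13.1, SD, n = 3), Il1r1 (18.2 ± 2.67) and Il18 (9.96 ± 3.15). Il33 and Il1r1 overlapped across libraries, whereas Il1r1 lay above Il18 in every knockout library. Il18, Il1a, Il1r2, Il1b, Il1rap and Il1rl1 followed in that order, and each of these neighbours overlapped with the next. Il1rn was lowest at 0.757 ± 0.175 CPM per kb (SD, n = 3), apart from its neighbour. With overexpression, Il1a led at 66.5 ± 54.4 CPM per kb (SD, n = 3), and its lowest library (25.4) lay above the highest of Il1r1 (9.29). Il1r1, Il18, Il33 and Il1rap followed with ranges apart, and Il1rap overlapped with Il1rn. Il1b (0.215 CPM per kb), Il1r2 (0.12) and Il1rl1 (0.0382) came last in that order, their ranges apart. Il1a thus moved from rank 4 to rank 1, and Il33 from rank 1 to rank 4. Merged exons take in every annotated transcript of a gene, 5.535 kb over 6 transcripts for Il1rn and 1.974 kb over 1 for Il1a. The order depends on these lengths, and which transcripts were expressed was not measured.

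**Figure D2:**
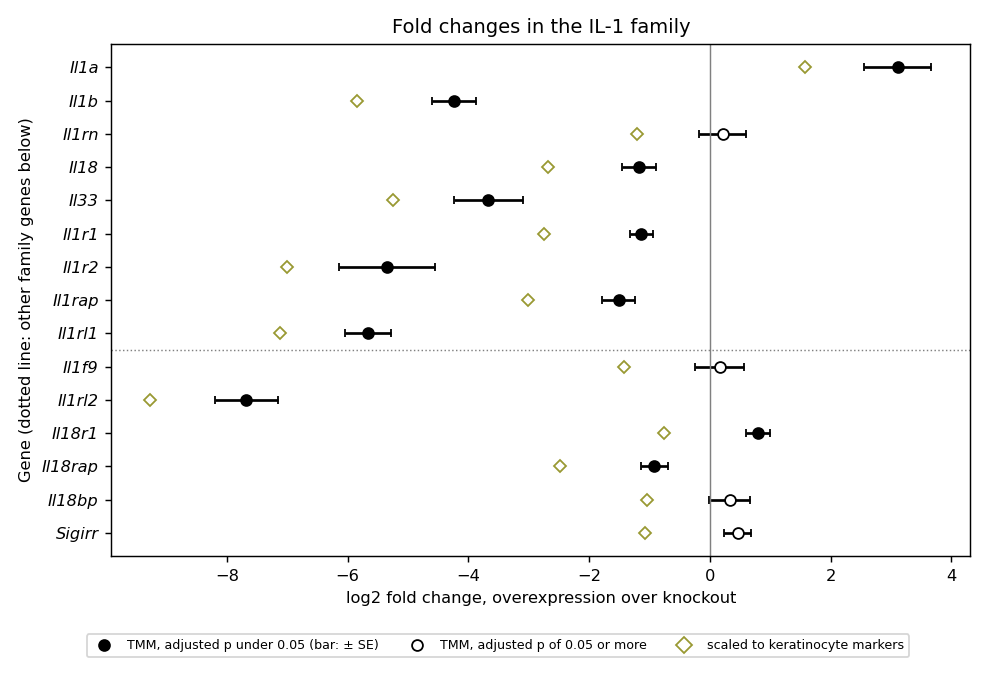
Fitted log2 fold changes (overexpression over knockout, bars ± standard error) of the 9 genes and, below the dotted line, of the other tested family genes, with open diamonds for the fit scaled to keratinocyte markers. Il1a stays above 0 in both fits (3.11 and 1.57), and Il18r1 changes from 0.79 to -0.76.

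Ratios of genes within a library do not depend on how libraries are scaled to each other. The ratio of Il1a to Il1b counts was 3.5, 1.02 and 2.06 in knockout replicates 1 to 3 and 614, 119 and 206 in overexpression replicates 1 to 3. The ratio of Il1a to Il1rn, ligand over antagonist, was 3.27, 2.62 and 5.24 with knockout and 33.2, 12.0 and 32.3 with overexpression. The ratio of Il1r1 to Il1r2, signalling receptor over decoy, was 48.9, 9.38 and 9.75 with knockout and 258, 107 and 500 with overexpression. All 3 ratios were higher in each overexpression library than in each knockout library. On the log2 scale they differed by 6.98, 2.72 and 3.87, each with an exact two-sided permutation p of 0.1, the smallest that 3 against 3 libraries can give (0.133 adjusted over the 4 ratios). Leaving out 1 library gave 6.32 (without overexpression replicate 1) to 7.51 (without overexpression replicate 2) for Il1a to Il1b, and 2.47 to 3.20 for Il1a to Il1rn. For Il1r1 to Il1r2 it gave 3.34 (without overexpression replicate 3) to 4.65 (without knockout replicate 1). The ratio of Il33 to Il1rl1 was 1.9, 5.53 and 11 with knockout and 50.8, 11.9 and 10.1 with overexpression, and the groups overlapped (exact permutation p = 0.2, adjusted p = 0.2).

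**Figure D3:**
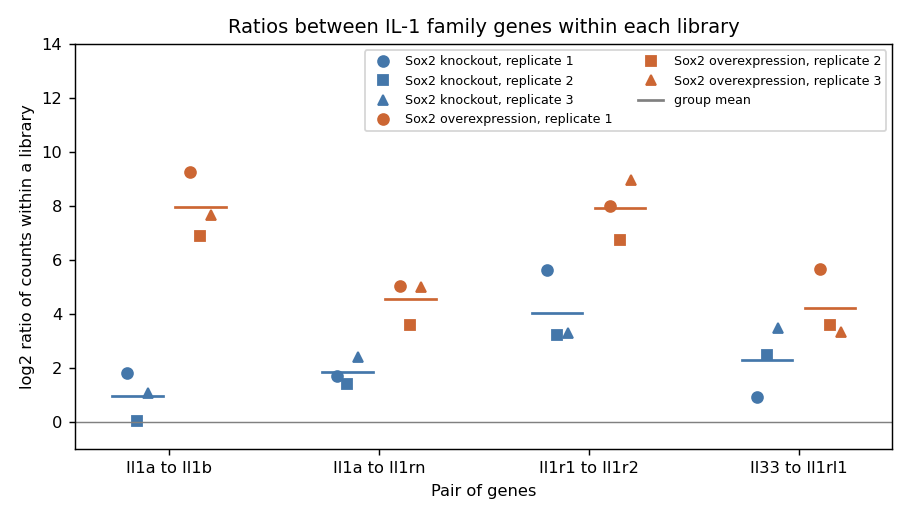
Log2 ratios of counts of gene pairs within each library, with 0.5 added to each count and lines at the group means. The first 3 ratios are higher in every overexpression library, and the ratio of Il33 to Il1rl1 overlaps (0.93 to 3.46 against 3.34 to 5.67).

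The receptor genes Il1r2, Il1r1 and Il1rl1 belong to a cluster of 6 family receptors on chromosome 1, all on the plus strand and within 477.6 kb. Its other genes are Il1rl2, the IL-36 receptor gene, and Il18r1 and Il18rap, the IL-18 receptor pair. From Il1r2 onward, the log2 fold changes in map order were -5.35 (Il1r2), -1.14 (Il1r1), -7.68 (Il1rl2), -5.66 (Il1rl1), 0.79 (Il18r1) and -0.92 (Il18rap). The neighbours Il1rl1 and Il18r1 changed in opposite directions, although Il1rl1 ends 391.3 kb and Il18r1 starts 391.5 kb from the left end of Il1r2. Il1rl2 had 759, 1362 and 1853 counts in knockout replicates 1 to 3 and 11, 5 and 3 in overexpression replicates 1 to 3. Its fitted fall was larger than that of any of the 9 genes (SE 0.52, edgeR adjusted p = 1.07e-05), and was -8.33 without overexpression replicate 1 (adjusted p = 3.21e-05). Il18r1 was at 20.6 ± 2.51 CPM with knockout and 35.7 ± 7.89 CPM with overexpression (SD, n = 3 each; adjusted p = 0.0154, edgeR). The call on Il18r1 was lost without knockout replicate 1 (adjusted p = 0.0554), and its sign turned under the keratinocyte scaling. Il18rap had an adjusted p of 0.012.

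**Figure D4:**
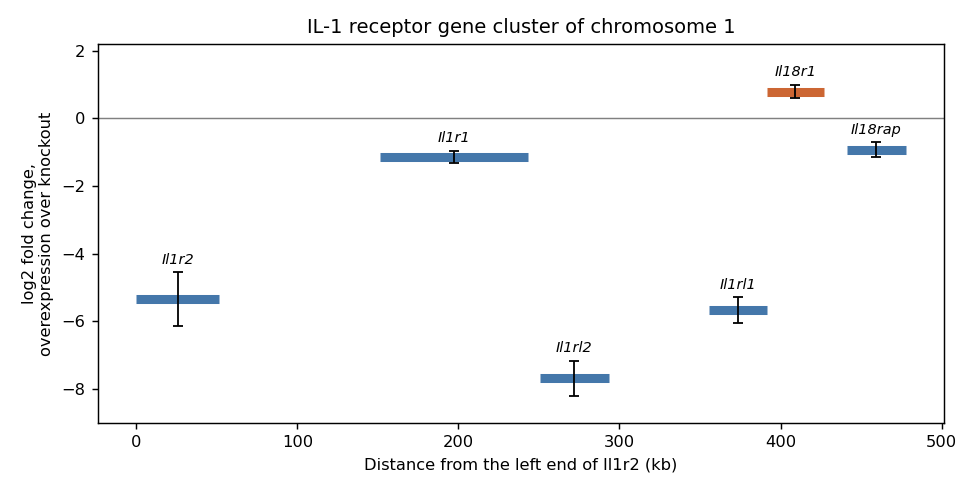
Log2 fold change (overexpression over knockout, bars ± standard error) of the 6 receptor genes of the chromosome 1 cluster, drawn at their distance in kb from the left end of Il1r2, with bar length to scale. Il1rl1 (-5.66) and its neighbour Il18r1 (0.79) lie on opposite sides of 0.

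Of the other family ligands, Il1f9 (IL-36γ) was tested and was at 0.79 ± 0.205 and 0.89 ± 0.258 CPM (SD, n = 3 each; log2 fold change 0.16, adjusted p = 0.788, edgeR). Its sign turned without knockout replicate 2 (-0.02) and without overexpression replicate 2 (-0.07). Il1f5, Il1f6, Il1f8 and Il1f10 did not pass the filter, and none had more than 6 counts in a library. Il18bp, which encodes a soluble trap for IL-18, was at 0.33 on the log2 scale (adjusted p = 0.486), and shares 80 exon bases with Numa1 on the other strand. Sigirr, a gene of an inhibitory family receptor, was at 0.46 (adjusted p = 0.146), and passed the threshold when overexpression replicate 1 was left out (0.65, adjusted p = 0.046). Il1rapl1 and Il1rapl2 did not pass the filter. Of the 7 other receptor and binding protein genes, 5 were thus tested, of which 1 was higher and 2 were lower past the threshold, where 31.6% of all tested genes were called.

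Among genes that process or release the ligands, Gsdmd and Pycard fell and Nlrp10 rose. Of 18 listed, 13 were tested, of which 2 were higher and 3 lower past the threshold (38.5% called, near the 31.6% of all tested genes), and the median of the tested genes was -0.66 on the log2 scale (all tested genes: -0.02). Gsdmd, whose product forms the pore through which IL-1β leaves cells, was lower with overexpression, at 28.1 ± 5.66 and 2.01 ± 0.624 CPM (SD, n = 3 each; edgeR log2 fold change -3.81, adjusted p = 1.94e-05). For Pycard, the inflammasome adaptor gene, it was -3.39 (adjusted p = 0.00118). It shares 485 exon bases with Gm45205 on the other strand. Gsdme, a related pore gene, had one of -1.58 (adjusted p = 0.0183), and lost the call without knockout replicate 3 (0.0502), overexpression replicate 2 (0.0667) or overexpression replicate 3 (0.0523). Casp1, which encodes the protease that cleaves IL-1β and IL-18, was not among the genes the naming rule picked and had a fitted value of -0.32 on the log2 scale (adjusted p = 0.465).

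Nlrp10, an epidermal gene of the NLR family, rose with overexpression, at 0.319 ± 0.0386 and 5.98 ± 3.09 CPM (SD, n = 3 each; edgeR log2 fold change 4.22, adjusted p = 0.000242). Capn1, the gene of a calpain protease, a class known to cleave IL-1α, was at 123 ± 12.9 CPM with knockout and 195 ± 39.2 CPM with overexpression (adjusted p = 0.0238). Its call was lost without any 1 knockout library (adjusted p from 0.0527 to 0.0861) and without overexpression replicate 3 (0.0541), and its sign turned under the keratinocyte scaling. Capn1 shares 394 exon bases with Gm10814 on the other strand.

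Genes that relay the receptor signal were called about as often as all genes. All 20 were tested, of which 3 were higher and 3 lower (30% called, against 31.6% of all tested genes), and the median was 0.05 on the log2 scale, also with Irak3 at its bound. Irak3, a gene of an inhibitory kinase relative in the pathway, had 275, 739 and 1020 counts in knockout replicates 1 to 3 and at most 3 in an overexpression library, and was at least 199-fold lower against 3 counts in the shallowest overexpression library (adjusted p = 3.17e-05, edgeR). It shares 192 exon bases with Tmbim4 on the other strand. Peli2, the gene of a ubiquitin ligase that acts on IRAK proteins, was at 461, 455 and 492 counts with knockout and 6, 2 and 4 with overexpression (edgeR log2 fold change -6.85, adjusted p = 2.88e-06). That of its relative Peli3 was -3.28 (adjusted p = 0.00533). Irak2, a kinase gene of the receptor complex, was higher with overexpression, at 41.0 ± 2.8 and 74.2 ± 16.7 CPM (SD, n = 3 each; edgeR log2 fold change 0.86, adjusted p = 0.00735). It shares 196 exon bases with Gm43963 on the other strand. Irak1 (0.48, adjusted p = 0.0495) and Tab1 (0.60, adjusted p = 0.0426) were close to the threshold, and the number of higher genes was 1 when any 1 knockout library was left out. All 3 higher genes changed sign under the keratinocyte scaling. Myd88, the shared adaptor gene, which the rule did not pick, had a fitted value of -0.38 on the log2 scale (adjusted p = 0.128) and shares 290 exon bases with Acaa1a on the other strand.

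Genes known to be induced by IL-1 fell or did not pass the threshold, with 1 exception. Of 24 listed, 23 were tested, of which 11 were lower and 1 higher, and the median was -1.04 on the log2 scale. That is 52.2% called, against 31.6% of all tested genes (18.0% lower and 13.6% higher). Has1, a hyaluronan synthase gene, was lower with overexpression, at 317 ± 163 and 0.836 ± 0.347 CPM (SD, n = 3 each; edgeR log2 fold change -8.54, adjusted p = 8.29e-06). The monocyte chemokine genes Ccl7 and Ccl2 had log2 fold changes of -7.57 (adjusted p = 9.14e-06) and -6.03 (adjusted p = 9.58e-06). That of Ccl7 was -8.31 without overexpression replicate 1. The gene that rose was Zc3h12a, which encodes an RNase that degrades cytokine messages (log2 fold change 0.61, adjusted p = 0.0159). Its call was lost without knockout replicate 1 (0.0562) or 3 (0.0734), and its sign turned under the keratinocyte scaling (-0.89).

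Values of 4 further members of this list are given here, chosen after they were seen. The NF-kB feedback genes Nfkbiz and Tnfaip3 had log2 fold changes of 0.03 and -0.04, with standard errors of 0.20 and 0.17 (adjusted p = 0.912 and 0.875, edgeR). The neutrophil chemokine gene Cxcl2 was at 0.41 (adjusted p = 0.269), whereas its relative Cxcl1 fell, at -2.37 (adjusted p = 0.000473). Without overexpression replicate 1 the median of the list was -1.98. Fibroblast markers moved with the genes that fell, by the values given above, and their part in these falls was not tested.

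**Figure D5:**
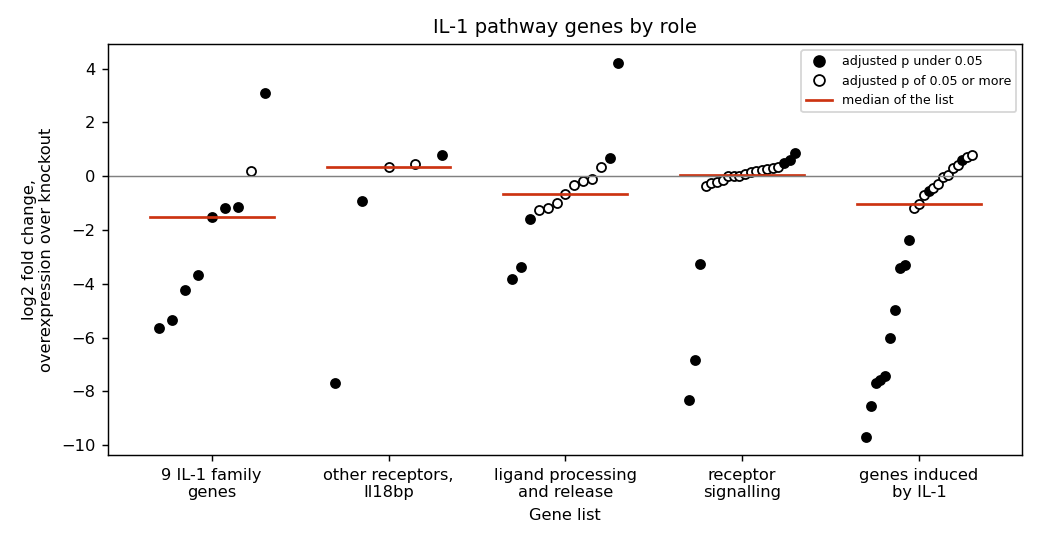
Fitted log2 fold changes (overexpression over knockout) of the tested genes of 5 lists, sorted within each list, filled where the adjusted p was under 0.05, with lines at the medians. The 9 family genes (median -1.51) and the induced genes (median -1.04) hold mostly falls, and the signalling genes lie mostly near 0 (median 0.05). The lowest signalling point is the fitted value of Irak3, which is no measure of its size.

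The genes whose pattern was most like that of a family member were sought over the 6 libraries by Pearson's r of log2 CPM, among 11166 genes. For Il1a they were Nras (r = 0.9952), Pik3cb (0.9932) and Nipal2 (0.9931). This measure compares the shape of the pattern and not its size: the log2 fold changes were 0.27 for Nras (adjusted p = 0.162, edgeR), 1.21 for Pik3cb and 0.62 for Nipal2, against 3.11 for Il1a. For Il1b they were Ksr1 (r = 0.9999), Cd34 (0.9997) and Mitf (0.9997). For Il33 they were Hyi, Armh4 and Elac1, and for Il1r1 Xndc1, Fam171b and Nin, with r between 0.9932 and 0.9979. The libraries fall into 2 groups, so many genes share such a pattern: 123 genes had an r above 0.95 with Il1a, 284 with Il33, 525 with Il1r1 and 1067 with Il1b.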

How the data were processed

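Counts per gene from 6 bulk RNA-seq libraries were used. The authors deposited raw whole-number counts with 1 column per library, whose name is the description in the labels. Per the submitters' processing notes, kallisto 0.44.0 and the mm10 build were used, with no role given. The annotation, the strand setting and any rounding are not given in the sources used here. RNA was extracted with a column kit and libraries made with a low-input kit, per the labels' protocols. Of 55481 rows, 55385 are mouse genes. The other 96 rows (spike-in and construct sequences) were not used, and make up at most 2.23e-05% of any library. Symbols and positions came from GENCODE M21 on GRCm38 for 55144 genes. The IL-36 genes carry older names there (Il1f5, Il1f6, Il1f8 and Il1f9), matched through RefSeq synonyms.

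filterByExpr (minimum count 10, minimum total 15) chose the genes to test, TMM set the library scale, and the groups were compared by quasi-likelihood in edgeR 4.0.16 (R 4.3.3), with group as the only term, Benjamini-Hochberg adjustment over 18504 genes and a threshold of 0.05. Fold changes are overexpression over knockout. The standard error is the log2 fold change divided by the root of F. A count of 0 allows up to 3 counts, or 0.0759 to 0.101 CPM, which covers counting error only. No replicate pair agreed within sampling noise (smallest chi-square per degree of freedom 37.7). The labels name no batch, and none was tested.

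The alternatives were the RLE size factors, upper-quartile normalization, scaling to 10 keratinocyte markers, no filter, the replicate number as a block, robust dispersion, DESeq2 1.42.0 and leaving out each library. The 9 genes, the lists, the markers and the alternatives were chosen with earlier results of these data known. The naming rule takes Sox2, the 9 genes, the other tested family genes, up to 3 genes with the smallest p in each direction from each other list, and the 3 genes closest in pattern to Il1a, Il1b, Il33 and Il1r1 with an average log2 CPM of at least 2. Other genes named, the overlapping and marker genes apart, are said to fall outside it.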

Additional observations from a re-analysis of the deposited data

Results flagged for a closer look

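One measurement outside the gene table was above the cut-off of 3 counts used to list such rows. The row of the reporter mCherry held 8 counts in knockout replicate 3, out of 9 counts over all 6 libraries. The cut-off is not a test of whether the reporter was present. The other 95 spike-in and construct rows had no counts.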

How the results depend on the processing

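Of 117 values of the 9 genes under 13 alternatives, 115 kept their direction and their side of the threshold. The other 2 belong to Il1rn, at 0.21 on the log2 scale in the test as reported, at -1.21 with scaling to the keratinocyte markers (adjusted p = 0.0529, edgeR) and between -0.25 (without overexpression replicate 1) and 0.51 when 1 library was left out. All 28 values of the within-library ratios kept their direction. The keratinocyte scaling called 14370 genes in all, 241 higher and 14129 lower, and moved the median of the 9 genes to -3.02. When 1 library was left out, the number of all genes called lay between 4230 and 5821, of those called higher between 1446 and 2599 and of those called lower between 2784 and 3256, and the median of the 9 genes lay between -1.65 and -1.25. The fewest higher genes were called without knockout replicate 2 (1446) and 3 (1610).

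Under the keratinocyte scaling the sign also turned for Capn1 (-0.85), Irak2 (-0.64), Tab1 (-0.93), Irak1 (-1.04), Zc3h12a (-0.89), Il1f9 (-1.43), Il18r1 (-0.76), Il18bp (-1.04) and Sigirr (-1.08), and the medians of the other ligands, the other receptors and the signalling list became -1.43, -1.08 and -1.50. Il1f9 was at -0.02 without knockout replicate 2 and at -0.07 without overexpression replicate 2, and so was the median of its list, which holds no other tested gene. The median of the other receptors, 0.33, was -0.89 with no filter and -0.27 without knockout replicate 1. It was -0.48, -0.38 and -0.10 without overexpression replicates 1, 2 and 3, with 0.48 the highest value on leaving out 1 library. Each median is over the genes tested in that fit, and the set of genes differs. For the 5 genes tested as reported, the middle value was 0.35 with no filter and 0.43 without knockout replicate 1. It was 0.03, 0.21 and 0.54 without overexpression replicates 1, 2 and 3. These medians thus turned with the genes included. The median of the signalling list was -0.01 with upper-quartile normalization. The keratinocyte scaling lowers the fold changes of all genes together, and moved the median of all tested genes from -0.02 to -1.56. Small rises therefore turn to falls under it. The causes of the other sign changes of single genes were not tested.

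No clear sign was seen that the replicate numbers pair the libraries, which does not exclude a shared origin of same-numbered libraries. Same-numbered libraries had correlations of their deviations from the group means of 0.0508, 0.0223 and -0.0399. For libraries of different numbers the correlations ranged from -0.0672 to 0.0503. With the replicate block, 5593 genes were called, the 9 genes kept their calls, and 1 signalling gene was higher in place of 3. Tab1 (adjusted p = 0.0514) and Irak1 (0.0644) lost their calls there. Falls to few counts, as for Il1r2 and Il1rl1, are limited in precision by depth.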
